A study of Sus scrofa with 6 samples.

Results

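KRT1, KRT10, IVL, CST6 and KLF4 are genes of squamous differentiation, the programme by which a keratinocyte leaves the basal layer and ends as a cornified cell. They were followed in 6 keratinocyte clones of the pig (Sus scrofa), 3 of central corneal and 3 of conjunctival origin, from the 2 neighbouring surface epithelia of the eye. The genes were found by their symbol in the array's annotation table, and all 5 of the 5 were measured, out of 6765 genes with a probe set named by 1 gene alone. Each had 1 such probe set, so no second probe set could be set beside it. The genes were selected on earlier results of these same arrays, namely their differences between the tissues and their levels by clone, so their values are given as a description, without a test.

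Keratinocytes were taken from biopsies of white domestic pigs, for the cornea at 6 mm from the limbus, the ring where both epithelia meet. The labels name no treatment in either group. The culture used a feeder layer of irradiated mouse fibroblasts (the line 3T3-J2), from which single keratinocytes were picked to found the clones. Each array therefore holds the RNA of the progeny of 1 cell in culture. The labels name 2 animals for the study, give no age or sex, and do not tie a clone to an animal. The spread between clones may thus hold differences between animals as well as between cells. The run files carry a project field on an irradiation time course that the labels do not mention, and the groups follow the labels.

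In a stratified epithelium, basal cells divide, and cells that move upwards make new keratins first. KRT1 and KRT10 encode the keratin pair of the first suprabasal layers in skin, and are taken as early markers. IVL encodes involucrin, a protein that transglutaminases join to the cell's inner surface to begin the cornified envelope, and is taken as a late marker. CST6 encodes cystatin M/E, an inhibitor of the proteases legumain and cathepsin V in the upper layers, and is the other late marker. KLF4 encodes a transcription factor needed for the skin barrier. The healthy cornea and conjunctiva do not normally cornify, and they use other suprabasal keratins than skin.

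All levels are log2 values made by robust multi-array averaging, on which a step of 1 is a doubling. Array medians lay between 4.40 and 4.48. In these pooled cells of a clone, fewer cells that make a transcript and less of it in each cell cannot be told apart. As a yardstick, 95% of the differences between 2 clones of 1 tissue were below 1.01, over the 4993 genes at or above the median probe set level of 4.447. The median such difference was 0.26.

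KRT1 varied most among the 5 genes. Its level was 8.76, 11.05 and 6.88 in corneal clones 1, 2 and 3, and 9.02, 4.57 and 6.34 in conjunctival clones 1, 2 and 3. The highest clone was corneal and the lowest conjunctival, but the tissues overlapped, since conjunctiva 1 lay above cornea 1 and cornea 3. The range over the 6 clones was 6.48, or 89.0-fold, the third largest of the 6765 genes. Conjunctiva 1 and cornea 1 were 0.26 apart and cornea 3 and conjunctiva 3 were 0.54 apart, within the usual distance of 2 clones. The other steps in the order were 2.02, 1.88 and 1.77.

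KRT10, which encodes the partner keratin of KRT1, did not share this spread. Its level was 7.18, 7.28 and 7.06 in the corneal clones 1, 2 and 3 and 6.88, 6.94 and 6.91 in the conjunctival ones. All corneal clones lay above all conjunctival clones, but the step from cornea 3 to conjunctiva 2 was 0.13, below the median distance of 2 clones, 0.26. The whole range was 0.40, and 25.6% of all genes had a smaller one. Within the conjunctiva KRT10 spanned 0.06 while KRT1 spanned 4.45. Cornea 2 had the highest level of both keratins, and within the cornea both followed the order 2, 1, 3. In the conjunctiva clone 1 was highest in KRT1 and lowest in KRT10, and clone 2 the reverse. The KRT10 steps, 0.11 and 0.11 within the cornea and 0.03 and 0.04 within the conjunctiva, were all below the median distance of 2 clones, so neither order of KRT10 stands beyond that spread.

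**Figure D1:**
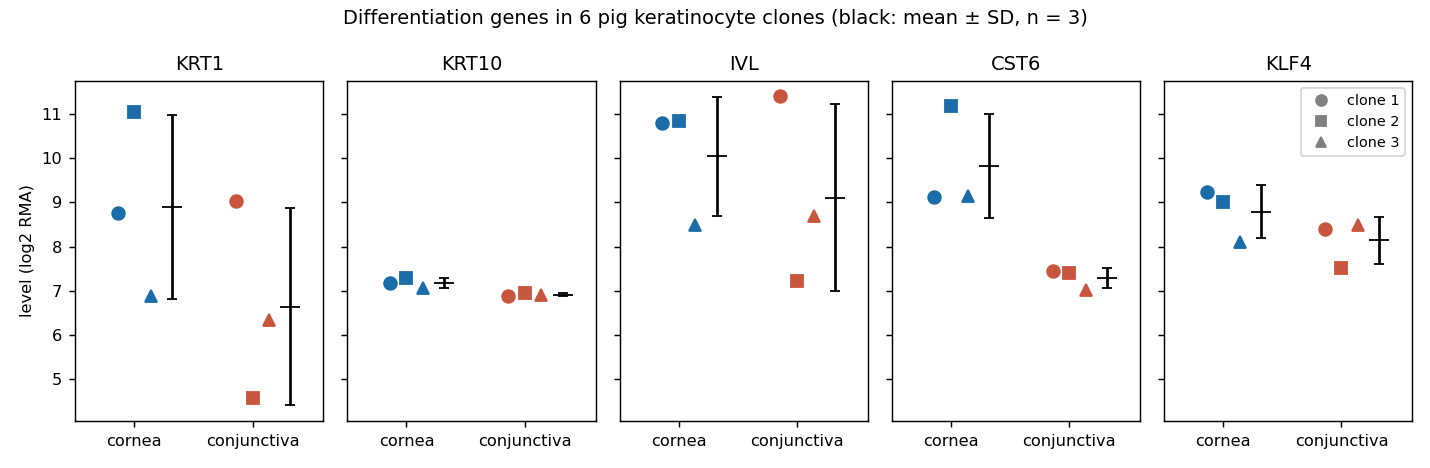
Levels (log2 RMA) of the 5 genes in each clone, with the tissue on the horizontal axis, the clone number as the symbol and black bars for the mean ± SD (n = 3). KRT1 and IVL spread over several log2 units within each tissue, while the CST6 values of the conjunctiva all lie between 7.03 and 7.45, below the corneal ones.

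IVL followed KRT1 rather than the tissue. Its level was 10.80, 10.85 and 8.49 in corneal clones 1, 2 and 3, and 11.40, 7.22 and 8.69 in conjunctival clones 1, 2 and 3. Conjunctiva 1, cornea 2 and cornea 1 were high, within 0.60 of each other, and a step of 2.11 parted them from conjunctiva 3, cornea 3 and conjunctiva 2. The range of 4.18 was larger than in 99.67% of genes. KRT1 was highest in the same 3 clones, and conjunctiva 2 was lowest in both genes.

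CST6 was the late marker that went with the tissue. Its level was 9.13, 11.18 and 9.15 in corneal clones 1, 2 and 3, and 7.45, 7.40 and 7.03 in conjunctival clones 1, 2 and 3. The tissues did not overlap, and the lowest corneal clone stood 1.68 above the highest conjunctival one. The conjunctival clones spanned 0.42, within the usual distance of 2 clones. The corneal clones spanned 2.05, nearly all of it the step of 2.03 from cornea 2 to the others. The annotation table gives the CST6 probe set a gene ID that is absent from RefSeq's table for the Sscrofa11.1 assembly, where CST6 has another ID, so its name rests on the annotation table alone.

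KLF4 had a narrower range of 1.71, though still larger than in 95.43% of genes. Its level was 9.24, 9.02 and 8.10 in the corneal and 8.41, 7.52 and 8.49 in the conjunctival clones 1, 2 and 3. Cornea 1 and 2 were the highest and conjunctiva 2 the lowest, and the tissues overlapped through cornea 3. No step between neighbours in the order exceeded 0.58, so neighbouring clones did not stand apart for this gene. Conjunctiva 2 was thus the lowest clone for KRT1, IVL and KLF4, but not for KRT10 or CST6.

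Read by clone, early and late markers were above their means together in cornea 1 and cornea 2. Cornea 2 was above the 6-clone mean by 3.28 for KRT1, 0.24 for KRT10, 1.27 for IVL and 2.63 for CST6. Cornea 1 was above it for the same 4 genes by 0.99, 0.13, 1.23 and 0.57. Its CST6 level was nevertheless the lowest of the corneal clones. For KRT10 the whole range was 0.40, within the usual distance of 2 clones. Against the 6-clone mean the late markers parted in conjunctiva 1. IVL was 1.82 and KRT1 1.25 above it, but CST6 was -1.11 and KRT10 -0.16 from it. Cornea 3 showed the reverse, with KRT1 at -0.89 and IVL at -1.09 but CST6 at 0.60. Conjunctiva 2 and 3 were below the mean in all 4, with KRT1 at -3.20 and -1.43, IVL at -2.35 and -0.88, and CST6 at -1.16 and -1.53. CST6 and KRT10 were above their means in all corneal and below them in all conjunctival clones, so their signs here restate the tissue. Within the conjunctiva, clone 1 was highest for CST6 as for KRT1 and IVL, though only at 7.45 against 7.40 and 7.03. Within the cornea, CST6 in clone 3, at 9.15, was level with clone 1, at 9.13.

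**Figure D2:**
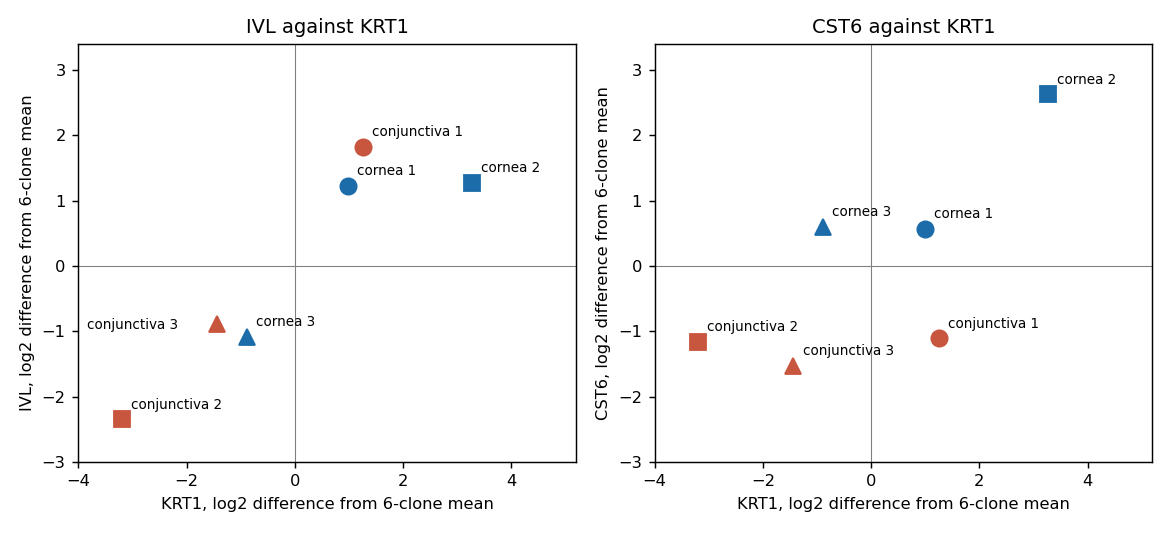
IVL (left) and CST6 (right) against KRT1, each as the log2 difference from its 6-clone mean, with corneal clones in blue and conjunctival clones in red. On the left, cornea 1, cornea 2 and conjunctiva 1 are high in both genes whatever the tissue. On the right, conjunctiva 1 has high KRT1 (1.25) with low CST6 (-1.11), and CST6 is below its mean in all conjunctival clones.

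Averaged over the pair of genes in each class, the early score was 0.56, 1.76 and -0.43 in the corneal and 0.54, -1.65 and -0.78 in the conjunctival clones 1, 2 and 3. The late score was 0.90, 1.95 and -0.25, and 0.36, -1.76 and -1.21. Both scores had the same sign in each of the 6 clones. With each gene first scaled to unit SD this held in 5 of them, since the early score of conjunctiva 1 turned to -0.24 while its late score was 0.20. The early score is nearly all KRT1, and the late score hides the opposite positions of IVL and CST6 in cornea 3 and conjunctiva 1.

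Measures of the culture and of the RNA moved with some of these values. The mean of 24 measured cell cycle genes was -1.03 from the 6-clone mean in cornea 2, the clone highest in KRT1 and CST6, and between -0.01 and 0.40 in the others. In cornea 2 the mitotic cyclin gene CCNB2 stood at 4.59 against 6.37 to 7.29 elsewhere, and TOP2A, which encodes a topoisomerase of dividing cells, at 5.06 against 6.80 to 7.90. The 3' minus 5' signal of the GAPDH control probe sets, a sign of RNA integrity, was -0.13, 0.25 and 0.23 in cornea 1, cornea 2 and conjunctiva 1, and 0.29, 0.42 and 0.36 in cornea 3, conjunctiva 2 and conjunctiva 3. It was thus lower in the 3 clones with high IVL, while that of actin was 0.46, 1.07 and 0.55 in these and 0.79, 0.93 and 1.11 in the others. The part of growth or of RNA quality in the results was not tested.

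Between the tissues, all 5 genes had a lower mean in the conjunctiva, as had 46.5% of all genes. The direction for these 5 was known when they were chosen. CST6 was at 7.29 ± 0.23 in conjunctiva and 9.82 ± 1.18 in cornea (SD, n = 3), a difference of -2.53 (SE 0.54) or 5.79-fold. KRT1 was at 6.64 ± 2.24 and 8.89 ± 2.09, a difference of -2.25 (SE 1.37), and IVL at 9.11 ± 2.12 and 10.05 ± 1.35, a difference of -0.94 (SE 1.12). KLF4 was at 8.14 ± 0.54 and 8.79 ± 0.60, a difference of -0.64 (SE 0.37), and KRT10 at 6.91 ± 0.03 and 7.17 ± 0.11, a difference of -0.26 (SE 0.10). For IVL the SE was larger than the difference.

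The values of 2 of the 5 genes, CST6 and KRT10, did not overlap between the tissues, against 3.16% of all genes without overlap and lower in conjunctiva. The step between the tissues was 1.68 for CST6 but 0.13 for KRT10. CST6 and KRT1 were at least 2-fold lower in conjunctiva by their means, against 0.429% of all genes. Since the genes were chosen with their tissue differences known, these counts are no measure of an excess. Tissue took 80.4% of the variance between clones for KRT10 and 76.9% for CST6, against 32.5% for KLF4, 28.9% for KRT1, 9.52% for IVL and a median of 9.83% over all genes. By limma, 0 of 23999 probe sets passed an adjusted p of 0.05 (0.0%), with 648 (2.7%) at an unadjusted p under 0.05, so none of the 5 is called.

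The KRT1, IVL and KLF4 differences moved by over 1.5 times when certain clones were left out, and only that of IVL was lost. KRT1 differed by -1.18 without cornea 2 and by -1.22 without conjunctiva 2, and by -3.44 without conjunctiva 1. IVL differed by 0.0004 without conjunctiva 2, by -0.54 without cornea 2, by -0.56 without cornea 1, by -1.72 without cornea 3 and by -2.09 without conjunctiva 1. KLF4 differed by -0.34 without conjunctiva 2, by -0.42 without cornea 1 and by -0.99 without cornea 3. The CST6 difference stayed between -2.88 and -1.85 and that of KRT10 between -0.32 and -0.21 when any 1 clone was left out.

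Clones carry the numbers 1 to 3 within either tissue. Those of the same number deviated together over all probe sets, though weakly, and least so for number 2 (r = 0.169). Within these pairs, conjunctiva minus cornea, KRT1 differed by 0.26, -6.48 and -0.54 for numbers 1, 2 and 3. IVL differed by 0.60, -3.62 and 0.20. The largest KRT1 and IVL differences were those of the pair numbered 2, in which conjunctiva 2 was the lowest clone of all for both genes. The labels do not say what a shared number means, and another pairing would give other differences. CST6 differed by -1.68, -3.79 and -2.13, KRT10 by -0.30, -0.34 and -0.15, and KLF4 by -0.83, -1.50 and 0.39. CST6 and KRT10 were lower in the conjunctival clone of all 3 pairs. For genes without overlap between the tissues any pairing must give this, so it adds nothing to the lack of overlap.

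**Figure D3:**
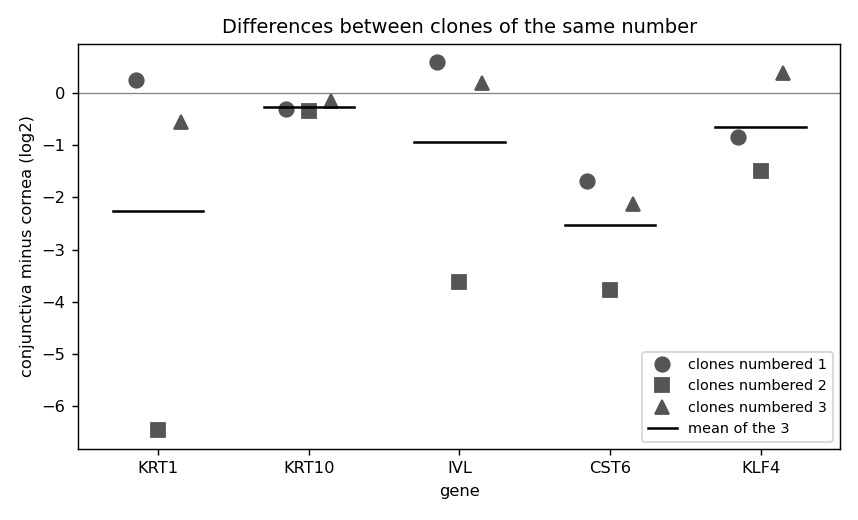
Conjunctiva minus cornea (log2) for clones of the same number, by gene, with the mean of the 3 as a line. CST6 and KRT10 lie below 0 in all 3 pairs, as they must in any pairing, since their tissues do not overlap. For KRT1, with a mean of -2.25, the pair numbered 2, at -6.48, joins the highest and the lowest clone.

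The arrays ran on 2 fluidics stations, the units that wash and stain them. On station 1 the conjunctival minus the corneal mean was -3.31 for KRT1 and -2.85 for IVL, with cornea 1 as the single corneal array. On station 2 it was 0.06 and 1.73, with conjunctiva 1 as the single conjunctival array, so IVL changed sign between the stations. CST6 was at -1.92 and -2.72 and KRT10 at -0.25 and -0.29. Neither gene could overlap within a station, since neither overlapped over all clones. KLF4 was at -1.23 and -0.15. With the station as a block in the fit the IVL difference was -0.56.

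The genes closest to each member were those with the smallest mean absolute difference from it over the 6 clones, each gene centred on its own mean. The measure favours genes of similar range, and with 6 clones and 6764 candidates close profiles also arise among unrelated genes. IVL was the gene closest to KRT1, at 0.74, followed by S100A1, GLRX, PTGS2 and NREP at 0.88 to 1.00. CST6 was at place 16 in that order, at 1.18. KRT1 and IVL were selected with their levels by clone known, so their closeness is a description only. By the largest instead of the mean difference, IVL was not among the 5 genes closest to KRT1. Closest to IVL were TMEM45A, KLK7, LOC404703, KRT1 and LGALS4, at 0.66 to 0.74.

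KLK7 encodes a serine protease that cuts the junctions of cornified cells so that they can be shed. It was at 10.99, 12.05 and 8.44 in the corneal and 12.03, 9.02 and 10.44 in the conjunctival clones 1, 2 and 3. Cornea 2, conjunctiva 1 and cornea 1 were the highest, as for IVL. LGALS4, which encodes a galectin, was highest in the same 3 clones, at 12.16 in conjunctiva 1, 11.55 in cornea 2 and 10.55 in cornea 1, and lowest in cornea 3 at 7.72.

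Closest to CST6 were LOC100621607, GLRX, S100A1, ARHGEF6 and MAN1A1, at 0.44 to 0.65, all with differences from -2.40 to -1.52. S100A1, which encodes a calcium-binding protein, was at 6.70 and 8.22 in cornea 1 and 2 and between 3.98 and 4.43 in the other 4 clones, below the median probe set level. GLRX, which encodes glutaredoxin, was at 7.69, 8.69 and 6.15 in the corneal clones and 6.07, 4.84 and 4.62 in the conjunctival ones, without overlap, and its other probe set differed by -1.82, in the same direction. The genes closest to KLF4 were ABLIM1, KTN1, IGFBP6, EML2 and CITED2, at 0.13 to 0.19.

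Other genes of the pathway were measured only in part. Of 34 cornified envelope genes 4 had a probe set of their own, IVL and CST6 among them. PPL, which encodes the envelope protein periplakin, was at 10.67, 11.02 and 9.43 in cornea and 10.81, 10.24 and 9.84 in conjunctiva, highest in the same 3 clones as IVL. The inhibitor gene PI3 was at 3.23 to 3.46, below the array medians. Of 19 suprabasal and stress keratins 3 were measured, and the third, KRT2, was at 3.80 to 4.43. LOR, FLG, TGM1, SPRR3 and the keratins KRT5, KRT14, KRT3, KRT12, KRT4 and KRT13 were not analysed here, since the annotation table pairs none of them alone with a probe set.

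Proteases and their inhibitors gave 17 measured genes besides CST6, and by limma 0 passed in either direction, with 0 at an unadjusted p under 0.05. Their means were higher in conjunctiva for 11 and lower for 6, against 3622 and 3143 over all genes. The median difference was 0.06 (-0.12 without cornea 3), against 0.01 over all genes. CTSV and LGMN, which encode cathepsin V and legumain, the targets of cystatin M/E, differed by -0.14 (SE 0.26) and -0.11 (SE 0.24). CTSV was at 11.58 ± 0.04 in conjunctiva and 11.72 ± 0.55 in cornea (SD, n = 3), and LGMN ranged from 9.77 to 10.58 over the 6 clones. SPINK5 encodes an inhibitor of KLK7. It was at 8.39, 9.70 and 6.35 in cornea and 9.61, 8.05 and 6.54 in conjunctiva, with cornea 2 and conjunctiva 1 highest and cornea 3 lowest. The tissue differences were 0.002 (SE 1.07) for KLK7 and -0.08 (SE 1.02) for SPINK5. ST14, the gene of the membrane protease matriptase, differed by 0.53 (SE 0.23), CST3 by 0.40 (SE 0.31) and SERPINB2 by -0.60 (SE 0.50), each at a limma adjusted p of 0.9999.

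**Figure D4:**
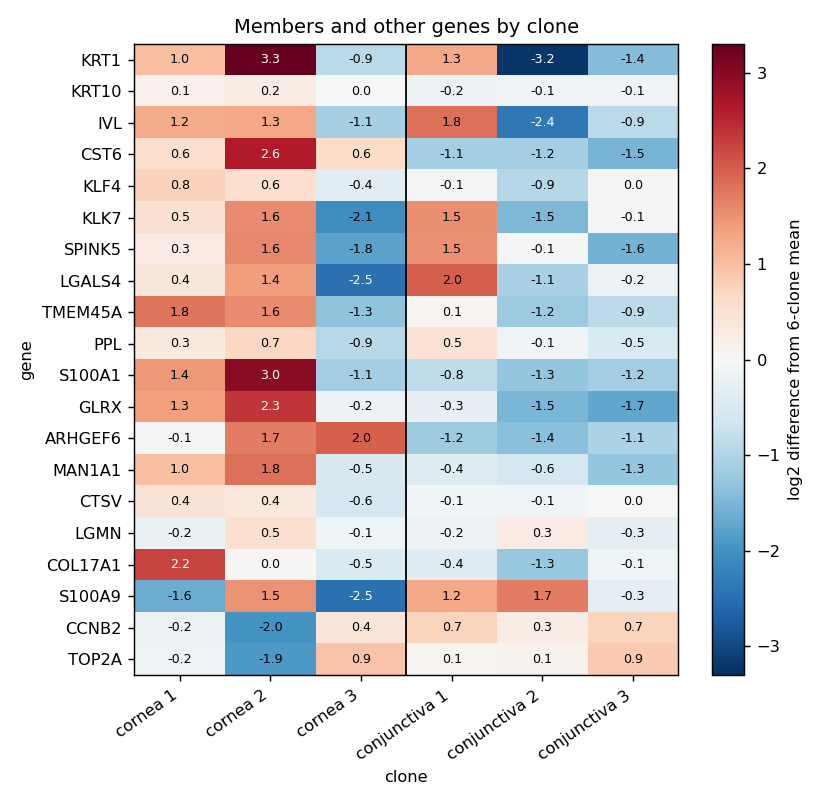
Log2 difference from the 6-clone mean for the 5 genes and 15 others named in the text, by clone, with corneal clones left of the line. KRT1, IVL, KLK7 and PPL are above their mean in cornea 1, cornea 2 and conjunctiva 1, while CST6, GLRX and S100A1 are below theirs in all conjunctival clones. GLRX and S100A1 are also below their means in cornea 3.

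Among 20 measured differentiation transcription factors and Notch genes besides KLF4, limma called 0 in either direction and 1 had an unadjusted p under 0.05. Means were lower in conjunctiva for 13 and higher for 7, with a median of -0.10, against 3143 lower and 3622 higher over all genes. That gene was JAG1, which encodes a Notch ligand, at 10.46 ± 0.21 in conjunctiva and 9.80 ± 0.47 in cornea, without overlap (limma adjusted p = 0.9999). Of its other probe sets 1 differed by 0.27 and 1 by -0.07. CEBPA and POU3F1 differed by -0.24 (SE 0.10) and -0.27 (SE 0.14), and the other probe sets of these genes by -0.01 and 0.02.

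Limma called 0 genes, in either direction, among the 6 basal layer, 10 desmosome and junction, 10 barrier lipid, 11 calcium-binding and S100 and 24 cell cycle genes measured, with 0 at an unadjusted p under 0.05 in each list. Their medians were -0.07, -0.10, 0.04, 0.11 and 0.33, and all but that of the basal layer changed sign when 1 clone or another was left out. The hemidesmosome collagen gene COL17A1 was at 9.62 in cornea 1 and between 6.13 and 7.41 in the other clones, and its other, dim probe set had no such peak. S100A9, which encodes a defence protein of stressed epithelia, was at 9.94, 13.07 and 9.11 in cornea and 12.82, 13.27 and 11.26 in conjunctiva. It was thus among the highest in conjunctiva 2, the clone lowest in KRT1 and IVL. Cell cycle genes were higher in conjunctiva for 21 of 24, against 3622 of 6765 over all genes. Their median turned to -0.14 without cornea 2, so the count leans on that clone.

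The labelled cell type was checked on its markers, of which 6 of 15 keratinocyte genes were measured. SFN, PERP and CDH1 stood above 10 in all clones, COL17A1 at 6.13 to 9.62 and CDH3 at 4.40 to 5.51. ITGA6 was below the median probe set level. The log2 of the summed keratinocyte marker signal was 14.10 to 14.54 in cornea and 13.98 to 14.35 in conjunctiva. None of the 5 corneal markers was measured. Of 11 conjunctival and goblet markers 4 were, at a log2 sum of 7.45 to 10.41 in cornea and 7.54 to 10.52 in conjunctiva. The means of MUC1, MUC4 and TFF3 were below the median probe set level, so most of each sum came from the keratin gene KRT19. Of 10 fibroblast markers 8 were measured, at a log2 sum of 11.48 to 12.21 in cornea and 12.19 to 12.80 in conjunctiva. VIM stood at 10.60 to 11.85, DCN at 5.61 to 8.48 and PDGFRB at 6.47 to 6.91. COL3A1 and LUM were below the median probe set level. All 3 melanocyte and all 4 leukocyte markers measured were below that level, as were 3 of 5 endothelial markers. What mouse feeder RNA adds to these signals was not tested.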

How the data were processed

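The deposited table holds log2 values that the authors made with RMA, per the submitters' processing notes. The version of RMA and the set of arrays it was run on are not given in the sources used here. RMA equalises the distributions of the arrays, so differences in RNA content per cell are lost. Per the file headers, the run files of the arrays give the fluidics station and module, which were used as other information, not as measurements. For arrays, their number limits the precision.

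The fit took 23999 probe sets with no filter on low values, after removal of 124 controls. Of these, 10069 had 1 symbol in the annotation table, 198 several and 13732 none, and gene IDs of 9961 single-symbol probe sets were in the RefSeq table of Sscrofa11.1. A gene with several probe sets is shown by the one with the highest mean. No build is tied to the probe sets and no sequence of them was used here. Limma 3.58.1 in R 4.3.3 (lmFit, eBayes) gave two-sided tests of conjunctiva against cornea, adjusted by Benjamini-Hochberg over all 23999. It was tested on simulated data.

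The 5 genes, the gene lists and the rule for named genes were chosen with earlier results of these data known. Named were the 5 genes, the 5 closest to each whose range was at least 1, up to 3 others per list by the smallest p, list genes needed for a role, and fixed reference genes. Not all of these are printed. Across probe sets, clones that share a number deviated together from their tissue means (number 1, r = 0.354; number 2, r = 0.169; number 3, r = 0.349), so an added fit had the number as a block. The mean r was 0.29 for this pairing and between -0.29 and 0.08 for the other possible pairings. Nothing in the labels says that clones came from separate cultures or animals, so p-values measure only the spread between these samples. Alternatives were leaving out each clone, the clone number or the station as a block, median centring, a filter on low values, limma's trend and robust options, means over probe sets, scaled scores and another measure of likeness.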

Additional observations from a re-analysis of the deposited data

How the results depend on the processing

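No processing choice apart from leaving out a clone and blocking or splitting by station moved a difference of the 5 genes by over 1.5 times. With the clone number as a replicate block the differences were the same by construction (KRT1 -2.25, CST6 -2.53), and the limma count stayed at 0, with 1204 probe sets at an unadjusted p under 0.05. It was also 0 in each fit without 1 clone (0 to 0), and 2 with limma's trend and robust options. Within station 1 and 2 alone, an alternative added after the data had been seen, KRT1 differed by -3.31 and 0.059, IVL by -2.85 and 1.73, CST6 by -1.92 and -2.72, KLF4 by -1.23 and -0.15 and KRT10 by -0.25 and -0.29. Without 1 clone, KRT1 ranged from -3.44 to -1.18, IVL from -2.09 to 0.0004, CST6 from -2.88 to -1.85, KLF4 from -0.99 to -0.34 and KRT10 from -0.32 to -0.21. List medians kept their sign for transcription factors (-0.13 to -0.036) and basal layer genes (-0.11 to -0.023). They did not for barrier lipid (-0.042 to 0.082), protease (-0.12 to 0.21), desmosome (-0.27 to 0.031), S100 (-0.047 to 0.16), cell cycle (-0.14 to 0.62) and cornified envelope genes (-0.22 to 0.15), nor for the single keratin gene tested (-0.21 to 0.0039). Of the 5 genes named as closest by mean difference, 2 for KRT1, 2 for IVL, 3 for CST6 and 3 for KLF4 were also among the 5 closest by the largest difference. Those kept were GLRX and PTGS2 for KRT1 and KLK7 and LGALS4 for IVL, so KRT1 and IVL lost each other. Each of the 5 genes had 1 probe set, so averaging probe sets could not change them or their scores. With the genes scaled to unit SD the early score of conjunctiva 1 turned from 0.54 to -0.24, against a late score of 0.20, and the other 5 clones kept the sign of both scores. Without detection calls in the table, low levels such as those of S100A1 outside cornea 1 and 2 cannot be told from background.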

Other observations

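Genes named here were chosen after their values were seen. KRT19, a keratin of simple and of some stratified epithelia, ran opposite to IVL. It was at 7.01, 8.29 and 10.36 in corneal clones 1, 2 and 3, and 7.15, 10.44 and 9.36 in conjunctival clones 1, 2 and 3. The 3 clones with high IVL had the 3 lowest KRT19 levels. HOPX, which encodes a homeodomain protein found in differentiating keratinocytes, was at 11.13, 10.69 and 7.57 in cornea and 10.55, 10.10 and 8.56 in conjunctiva. It was lowest in both clones numbered 3, and conjunctiva 2, the lowest clone for IVL, kept a level near that of conjunctiva 1. SLPI, which encodes a secreted protease inhibitor, was at 12.16 in conjunctiva 1, 11.67 in cornea 2 and 10.76 in conjunctiva 2, against 9.26, 8.51 and 8.64 in cornea 1, cornea 3 and conjunctiva 3.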
